A study of Mus musculus with 15 samples.

Results

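The loss of XLF was examined in 5 of the 15 CSR-HTGTS libraries of the series, each a list of junctions between a bait break in the 5′ part of Sμ and prey breaks elsewhere in the genome. The libraries were selected on a measured value: their Sγ1 junction counts match, after rounding, counts that the study's figures print for Xlf-/- or WT cells. A library printed under WT is called W and one printed under Xlf-/- is called X, with the printed repeat as its number, so that W1 and X1, and W2 and X2, form pairs. W3 has no partner here. The deposited genotype label is WT for W1 and X1, Shld1-/- for W2, and XLF-/- for X2 and W3, so label and printed genotype differ in 3 of the 5 libraries (X1, W2 and W3). Which of them is right was not tested, and junction lists do not measure the Xlf or Shld1 genes. For that reason the printed genotypes were neither averaged nor tested, and with 2 X and 3 W libraries an exact two-sided permutation test could not have gone below p = 0.2.

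Class switch recombination replaces the constant region of an antibody by joining breaks in the repetitive switch region Sμ, upstream of Ighm, to breaks in a downstream switch region such as Sγ1, upstream of Ighg1. The breaks start from lesions made by the deaminase AID, and a deletional join between the 2 regions removes the DNA between them, while an inversional join turns it around. XLF is a factor of non-homologous end joining, the repair pathway that ligates ends directly or after minimal trimming and can add or fill in a few bases. When this pathway is impaired, B cells can use alternative end joining, which pairs short stretches of identical bases, called microhomology (MH), and often follows resection of the ends.

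All 5 libraries are labelled as splenic B cells of C57BL/6 mice, activated with alphaIgD-dextran, LPS and IL4, a mixture that directs switching to IgG1 and IgE. The methods give 96 h of stimulation before the DNA was taken, and an age of 6 to 17 weeks for the mice of such cultures. XLF and SHLD1 loss were constitutive, so that development of the B cells took place without them. The labels also name, for all 5 libraries, a deletion between Sm and Sa on the non-coding IgH allele, and for W2, X2 and W3 an Ia deletion in such cells. The methods describe no such alleles for these primary cells. The cell type could not be checked against marker genes in DNA junction lists.

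The lists held 4441 (W1), 8531 (W2), 7900 (W3), 2700 (X1) and 4186 (X2) junctions, of which 4109, 8110, 7533, 2181 and 3684 lay in the Igh window (mm9, chr12:114450000-114700000). Sγ1 junctions, the values that chose the libraries, numbered 2350, 5181, 4839, 1015 and 1917 in the same order (chr12:114562000-114582000). They made up 57.2%, 63.9% and 64.2% of Igh junctions in W1, W2 and W3, and 46.5% and 52.0% in X1 and X2, a description that the choice itself shaped. Prey on other chromosomes took 4.10% to 6.78% of rows in the W libraries, 9.84% in X2 and a larger part, 460 of 2700 rows, in X1. The 5 lists had no read names in common (0 for every pair of libraries). All intervals below are 95% Wilson intervals, or Newcombe intervals for differences, and cover counting error only. Junctions of 1 library are not replicates, and the intervals say nothing of the spread between mice. The range among the W libraries is given as a description. Their labels differ, so it is a spread between mice of 1 genotype only if the printed genotypes are right.

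The junctions themselves show the kinds of repair product that were counted. For each pair, the read with the longest MH in core Sγ1 (chr12:114569000-114577000) is shown as sequenced, with up to 40 bases on either side. Capitals mark the bases covered by both the bait and the prey alignment. This overlap was counted as MH, and mismatches within it were allowed. Bait bases stand on the left and prey bases on the right.
W1 longest microhomology: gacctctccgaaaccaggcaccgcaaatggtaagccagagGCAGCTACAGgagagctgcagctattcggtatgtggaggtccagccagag
X1 longest microhomology: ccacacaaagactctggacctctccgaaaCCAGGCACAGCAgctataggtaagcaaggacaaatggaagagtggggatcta
W2 longest microhomology: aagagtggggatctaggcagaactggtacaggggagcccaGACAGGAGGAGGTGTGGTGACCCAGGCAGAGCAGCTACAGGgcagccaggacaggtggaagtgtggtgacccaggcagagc
X2 longest microhomology: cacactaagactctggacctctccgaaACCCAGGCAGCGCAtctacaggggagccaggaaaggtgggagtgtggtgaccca
These overlaps were 10, 12, 41 and 14 bp long. In each read the bait alignment held at least 1 mismatch within the capitals, so the stretch of identical bases was shorter. The 41-bp read of W2 stands apart, because its bait part aligned inside Sγ1 (bait end at chr12:114576606) and not in Sμ. Such bait ends outside the Sμ window (chr12:114653500-114673500) occurred in 1, 6 and 8 Sγ1 junctions of W1, W2 and W3 and in 0 of X1 and X2.

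Direct joins have neither shared nor inserted bases. The example from each library is the direct join whose prey position was used by most rows, with capitals on the base at either side of the junction.
W1 direct join: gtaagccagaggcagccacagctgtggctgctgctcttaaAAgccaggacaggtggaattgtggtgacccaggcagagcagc
X1 direct join: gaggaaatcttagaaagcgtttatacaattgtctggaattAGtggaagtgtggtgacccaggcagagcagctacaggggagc
W2 direct join: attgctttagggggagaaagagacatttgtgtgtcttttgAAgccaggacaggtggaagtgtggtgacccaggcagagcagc
X2 direct join: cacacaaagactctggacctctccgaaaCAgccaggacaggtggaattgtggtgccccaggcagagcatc
The positions were chr12:114574142 in W1, chr12:114574719 in X1, chr12:114573752 in W2 and chr12:114574142 in X2, so W1 and X2 shared theirs. They were used by 7, 6, 14 and 7 core junctions. All 4 prey alignments carried the pipeline's flag for mapping quality, a filter for prey that can align almost as well elsewhere.

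The last set shows the deletional junction that lay farthest downstream of core Sγ1 within the window, in each library. Capitals mark MH in W1 and W2, and inserted bases, which lie between the bait and the prey alignment, in X1 and X2. The inserted bases of the X2 read also occur within its bait part.
W1 farthest past core: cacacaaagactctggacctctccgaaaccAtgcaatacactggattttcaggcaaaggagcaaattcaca
X1 farthest past core: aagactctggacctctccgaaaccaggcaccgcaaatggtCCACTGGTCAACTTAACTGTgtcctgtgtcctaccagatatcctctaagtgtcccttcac
W2 farthest past core: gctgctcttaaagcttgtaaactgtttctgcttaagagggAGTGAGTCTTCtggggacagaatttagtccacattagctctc
X2 farthest past core: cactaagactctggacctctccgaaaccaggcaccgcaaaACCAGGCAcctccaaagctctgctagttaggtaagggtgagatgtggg
They lay 4871, 5649, 6204 and 6336 bp past the core in W1, X1, W2 and X2. The W1 read carried 1 bp and the W2 read 11 bp of MH, the latter with 1 mismatch to the bait. The X1 and X2 reads carried insertions of 20 and 8 bp. The prey bases of the W1 read matched the last Ighg1 exon of GRCm38 (chr12:113325918) and those of the X1 read a position just past that gene (chr12:113325140).

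MH at Sγ1 junctions was longer in both X libraries than in every W library. Among junctions without insertion, mean MH was 1.57 bp in W1 (n = 1947 junctions), 1.67 bp in W2 and 1.62 bp in W3, against 2.30 bp in X1 and 2.76 bp in X2. Direct joins made up 30.3%, 30.8% and 31.0% in the W libraries, which differed by 0.758 percentage points. They made up 18.2% in X1 and 13.0% in X2. The difference was -12.1 percentage points in pair 1 (95% interval -15.2 to -8.76) and -17.8 in pair 2 (-19.8 to -15.6). The X libraries also differed from each other, by -5.21 points (-8.24 to -2.31), with fewer direct joins in X2.

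The whole length distribution was displaced. In the W libraries the shares fell with each added base, from 28.1% to 30.1% at 1 bp to 17.8% to 18.5% at 2 bp and 10.3% to 11.3% at 3 bp. In X1 the shares at 0, 1, 2 and 3 bp were nearly level, at 18.2%, 21.5%, 21.1% and 19.0%. In X2 they rose to a maximum of 22.1% at 3 bp. At 2 bp the X libraries, with 21.1% and 21.2%, stood within 4 percentage points of the W libraries, so most of the displacement was a loss at 0 and 1 bp and a gain at 3 to 7 bp. Junctions with over 3 bp of MH made up 11.0%, 12.3% and 11.3% in the W libraries and 20.3% and 27.5% in X1 and X2. That was 9.22 points more in pair 1 (6.34 to 12.2) and 15.2 points more in pair 2 (12.8 to 17.5). X2 exceeded X1 by 7.24 points (3.82 to 10.5). Very long overlaps did not separate the sets. Over 10 bp, there were 0, 14 and 14 junctions in W1, W2 and W3 and 1 and 10 in X1 and X2. As shares these were 0%, 0.327% and 0.352% in W1, W2 and W3, and 0.109% and 0.588% in X1 and X2.

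**Figure D1:**
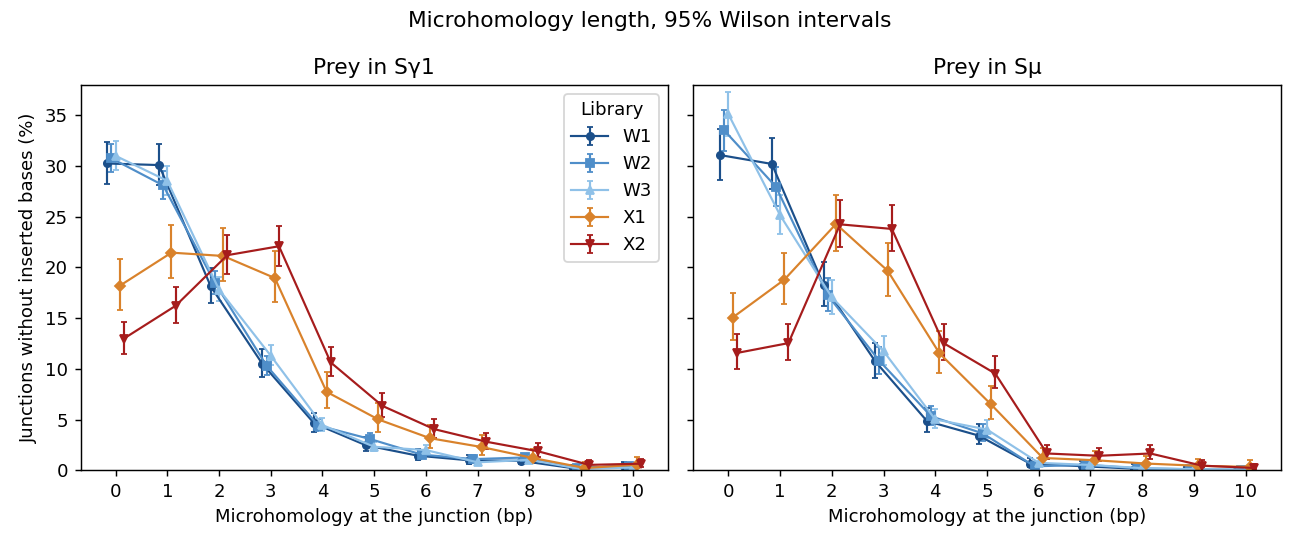
Share of junctions without inserted bases (%, vertical axis) at each microhomology length from 0 to 10 bp (horizontal axis) for prey in Sγ1 (left) and Sμ (right), per library, with 95% Wilson intervals as bars. The 3 W libraries lie on each other and start at 30.3% to 31.0% in Sγ1, while X1 and X2 start at 18.2% and 13.0% and exceed the W libraries from 2 bp to 7 bp.

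The sequences shared at long MH were compared across the libraries. Of the sequences over 3 bp long used as MH at Sγ1, the most frequent over the 5 libraries was ccaggca, found in 86 junctions, followed by ggcagcca in 82 and agccag in 75. The first can be read within the capitals of the X1, W2 and X2 reads shown above with the longest MH. The first took 2.22% to 5.12% of such junctions in the W libraries and 6.45% and 7.05% in X1 and X2, with intervals that overlapped. The second ranged from 3.56% to 7.18% in the W libraries and was 1.61% and 3.42% in X1 and X2. MH sequences that contained agct, a preferred target motif of AID that is frequent in switch repeats, took 9.11% to 11.6% in the W libraries, 12.9% in X1 and 10.3% in X2. The GC content of the shared bases was 63.7% to 66.3% in the W libraries and 61.2% and 63.5% in X1 and X2.

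Insertions were rarer in the X libraries, and the deficit lay in the shortest ones. Bases between the bait and the prey alignment were present in 17.1%, 17.3% and 17.9% of Sγ1 junctions in W1, W2 and W3 but in 9.56% and 11.2% in X1 and X2. The difference was -7.59 points in pair 1 (-9.88 to -5.14) and -6.08 points in pair 2 (-7.78 to -4.28). X1 and X2 differed by 1.66 points with an interval that included 0 (-0.717 to 3.89). Insertions of 1 bp were the commonest length at Sγ1 in every library. They were found in 187 of 2350, 419 of 5181 and 421 of 4839 Sγ1 junctions of W1, W2 and W3, or 7.96%, 8.09% and 8.70%. X1 held 25 of 1015 and X2 52 of 1917, or 2.46% and 2.71%. The pair differences were -5.49 (-6.90 to -3.95) and -5.37 points (-6.38 to -4.28). X1 and X2 held 18 and 51 insertions of 2 bp at Sγ1, so in X2 the 2 lengths were nearly level.

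Insertions of 2 to 4 bp took 5.81% to 6.17% of Sγ1 junctions in the W libraries and 3.05% and 4.43% in X1 and X2, a difference of -3.12 points in pair 1 (-4.49 to -1.58) and -1.38 in pair 2 (-2.45 to -0.193). Insertions of 5 bp or longer, in contrast, were not fewer. They took 3.02%, 3.40% and 3.20% in W1, W2 and W3 and 4.04% and 4.07% in X1 and X2, with pair differences of 1.02 (-0.284 to 2.54) and 0.672 points (-0.284 to 1.75). The mean insertion was thus 3.69 to 3.78 bp long in the W libraries and 5.77 and 5.27 bp in X1 and X2. Among insertions of 1 bp at Sγ1, a or t was inserted in W1 in 33.2% and 32.6% of cases, against 18.2% for c and 16.0% for g. With 25 and 52 such insertions in X1 and X2, the 4 bases could not be told apart there at this depth.

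The deficit of the shortest insertions was also seen where the prey lay in Sμ. There 1-bp insertions took 9.11%, 9.71% and 9.72% of junctions in the W libraries, 3.07% in X1 and 4.96% in X2. The pair differences were -6.04 (-7.74 to -4.29) and -4.75 points (-6.25 to -3.18). Insertions of 2 to 4 bp took 8.62% to 9.88% in the W libraries and 7.95% and 6.06% in X1 and X2. Here the pair 1 difference of -1.93 points had an interval that included 0 (-4.03 to 0.265). In pair 2 it was -2.56 points (-4.09 to -0.955). Insertions of 5 bp or longer took 6.13% to 6.74% in the W libraries and 6.78% and 7.41% in X1 and X2, with both pair intervals including 0.

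**Figure D2:**
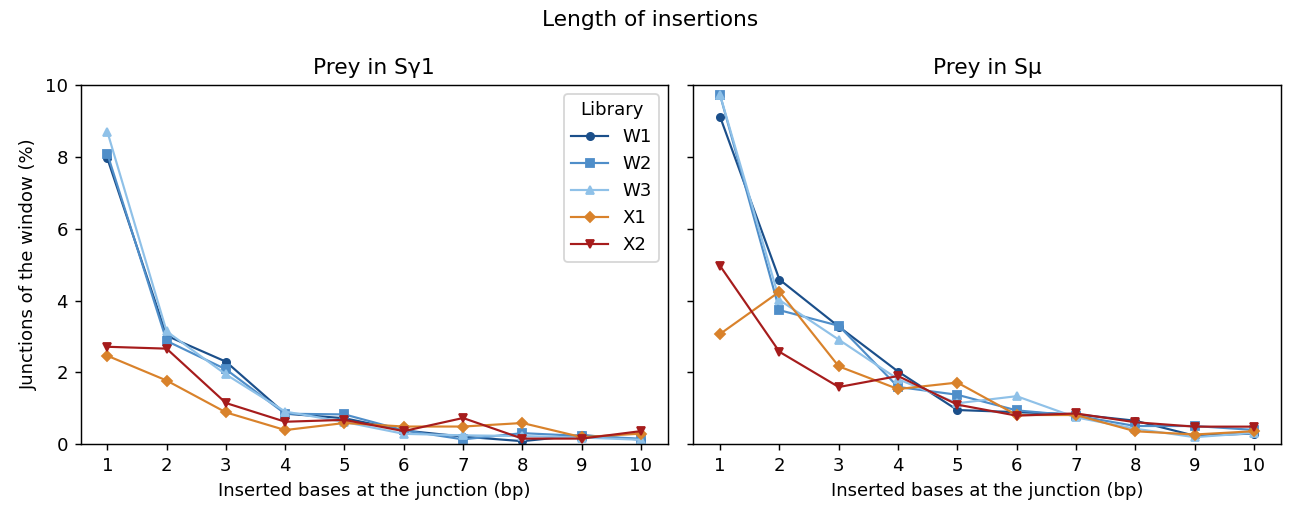
Junctions with 1 to 10 inserted bases (horizontal axis) as a percentage of all junctions of the window (vertical axis) for prey in Sγ1 (left) and Sμ (right), per library. At 1 bp in Sγ1 the W libraries lie at 7.96% to 8.70% and the X libraries at 2.46% and 2.71%, and the lines meet at the longer lengths.

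Junctions in Sγ1 were also differently placed and oriented. Deletional junctions, those with bait and prey on the same strand, lay in the core in 2230 of 2350, 4922 of 5181 and 4554 of 4839 Sγ1 junctions of W1, W2 and W3, and made up 85.7% in X1 and 77.8% in X2. Within that distribution the centre did not move: the median deletional junction lay 3362 to 3423 bp past the upstream bound of the core in the W libraries and 3363 and 3443 bp in X1 and X2. The downstream end did, as the 95th percentile lay at 6092, 6318 and 6193 bp in the W libraries and at 7426 and 8497 bp in X1 and X2. Of deletional junctions in or past the core, 9 of 2239, 29 of 4951 and 25 of 4579 lay past it in W1, W2 and W3, or 0.402%, 0.586% and 0.546%. X1 had 39 of 909 and X2 had 106 of 1597, or 4.29% and 6.64%. The difference was 3.89 points in pair 1 (2.70 to 5.42) and 6.05 points in pair 2 (4.90 to 7.39). X2 exceeded X1 by 2.35 points (0.458 to 4.09). Beyond 2 kb past the core there were 2, 8 and 1 such junctions in W1, W2 and W3, against 11 in X1 and 43 in X2.

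The junctions past the core reached the body of the Ighg1 gene. The prey bases of 33 of the 39 in X1 and 70 of the 106 in X2 matched a single place of the Igh locus of GRCm38 (50 bases, no mismatch). Of these, 29 and 62, or 87.9% and 88.6%, lay at or past the start of the first Ighg1 exon (chr12:113330233-113330523), so that the join removed part or all of the exon that encodes the first constant domain. Exons held 13 and 25 of them, introns 14 and 34, and 2 and 3 had passed the gene. In the W libraries 6 of 7, 16 of 17 and 9 of 16 matched junctions past the core did so too. The median distance of tail junctions past the core was 855, 961 and 474 bp in W1, W2 and W3 (9, 29 and 25 junctions) and 992 and 1351 bp in X1 and X2 (39 and 106 junctions). Among deletional core junctions, 0 of 1026, 2146, 2041, 445 and 683 matched junctions of W1, W2, W3, X1 and X2 reached the gene.

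Direct joins made up a smaller share of the tail in the X libraries. Of tail junctions without insertion, 0 of 33 in X1, where 3 junctions would make up 9.09%, and 7 of 91 in X2 were direct. In W1, W2 and W3, 3 of 9, 6 of 25 and 5 of 23 were direct. Over 3 bp of MH was carried by 0 of 9, 6 of 25 and 2 of 23 in W1, W2 and W3 and by 7 of 33 in X1 and 33 of 91 in X2. W2, at 24.0%, thus lay above X1, at 21.2%, and the sets overlapped on that measure. The lower share of direct joins was also present without the tail, as deletional joins within the core were direct in 30.7%, 30.7% and 31.1% in the W libraries and in 19.3% and 14.4% in X1 and X2.

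**Figure D3:**
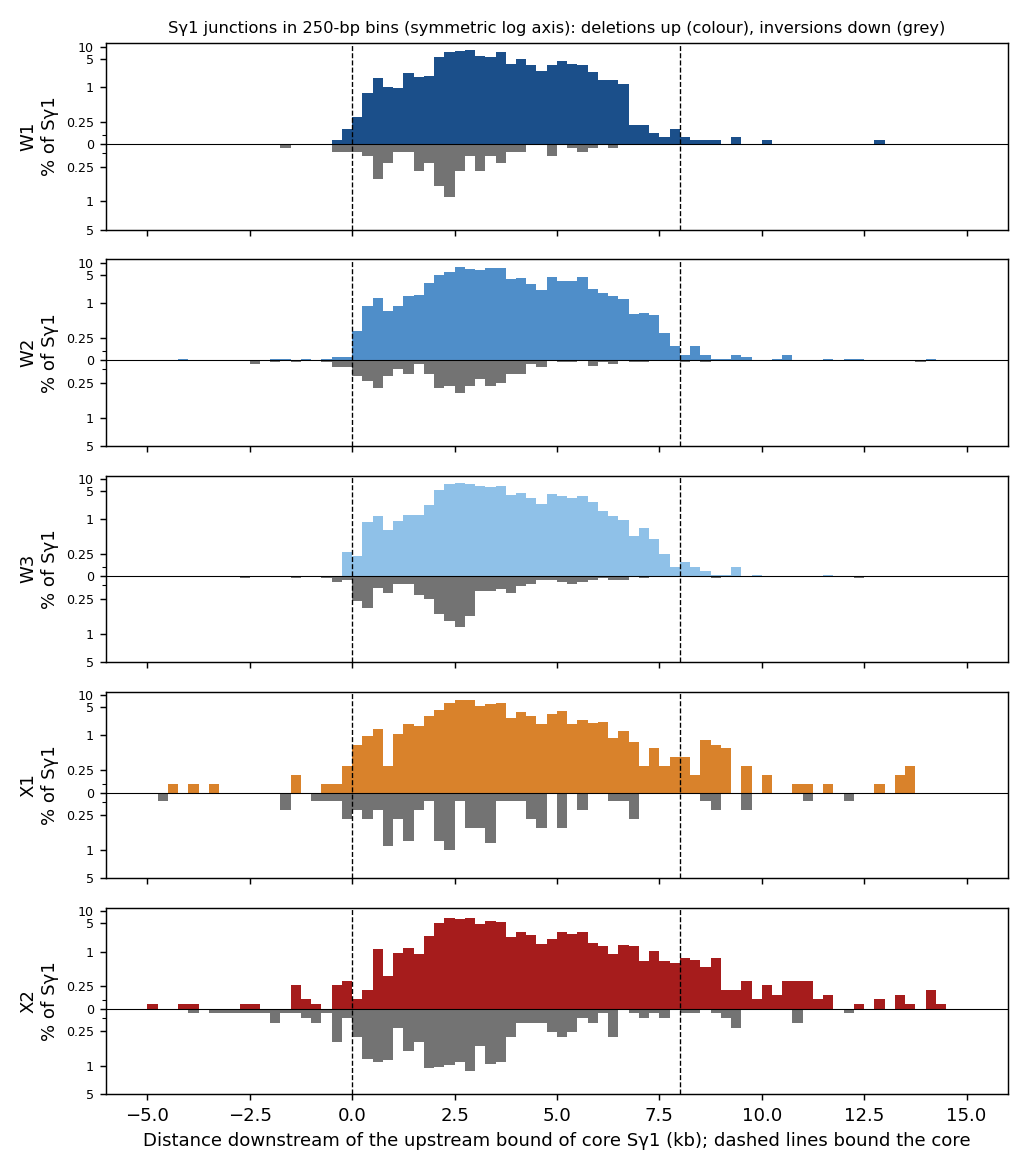
Position of Sγ1 junctions in 250-bp bins, as a percentage of the Sγ1 junctions of each library on a symmetric log axis, with deletional joins drawn upward in colour and inversional joins downward in grey. The horizontal axis is the distance in kb downstream of the upstream bound of core Sγ1, and dashed lines mark the core, past which 0.402% to 0.586% of deletional junctions lay in the W libraries, 4.29% in X1 and 6.64% in X2.

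Inversional joins, which do not give a switched antibody, were a larger part of Sγ1 junctions in the X libraries. Inversions in the core or on its upstream side, set as a share of themselves plus deletional joins in or past the core, made up 4.52%, 4.22% and 5.08% in W1, W2 and W3 and 8.92% and 15.1% in X1 and X2. The difference was 4.40 points in pair 1 (2.54 to 6.47) and 10.8 points in pair 2 (9.18 to 12.6). X2 exceeded X1 by 6.14 points (3.66 to 8.47). In the joins themselves, direct inversional joins made up 22.5%, 33.5% and 29.7% in W1, W2 and W3, 15.0% in X1 and 8.14% in X2. The pair 1 difference had an interval that included 0 (-19.0 to 4.52), with 80 and 89 joins, and the pair 2 difference was -25.4 points (-32.9 to -17.9). Insertions at inversional Sγ1 joins ranged from 13.6% to 16.0% in the W libraries and were 16.7% and 12.8% in X1 and X2, so the deficit of insertions seen in deletional core joins (8.51% and 10.5% against 17.2% to 18.2%) was not detectable there.

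Joins within Sμ, which link the bait to another break of the same switch region, differed in the same direction. Direct joins took 31.1%, 33.5% and 35.1% in W1, W2 and W3 and 15.1% and 11.6% in X1 and X2, a difference of -16.0 points in pair 1 (-19.4 to -12.5) and -21.9 in pair 2 (-24.6 to -19.2). MH over 3 bp took 9.70% to 11.0% in the W libraries and 22.2% and 27.9% in X1 and X2. Inversional joins took 4.11%, 7.61% and 8.89% in the W libraries, a spread of 4.78 points, and 20.4% and 24.6% in X1 and X2. The pair differences were 16.3 (13.8 to 18.9) and 16.9 points (14.7 to 19.3).

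Deletional Sμ joins reached much farther from the bait. The median distance from the bait end was 1441 to 1545 bp in the W libraries and 1638 and 1618 bp in X1 and X2. The 95th percentile was 2588, 2630 and 2556 bp in W1, W2 and W3, against 5595 and 6474 bp in X1 and X2. More than 5 kb away, a distance chosen after the values were seen, lay 1 of 1611, 10 of 2550 and 4 of 2316 deletional Sμ joins of the W libraries, or 0.0621%, 0.392% and 0.173%. X1 had 67 of 881 and X2 117 of 1232, or 7.60% and 9.50%, which was 7.54 (5.94 to 9.48) and 9.10 points (7.56 to 10.9) more than their partners. Rows flagged for mapping quality were 41.6% to 48.3% of Sμ junctions in the W libraries and 29.7% and 27.9% in X1 and X2, and without them far joins made up 0.122% to 0.695% in the W libraries and 11.1% and 13.2% in X1 and X2.

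**Figure D4:**
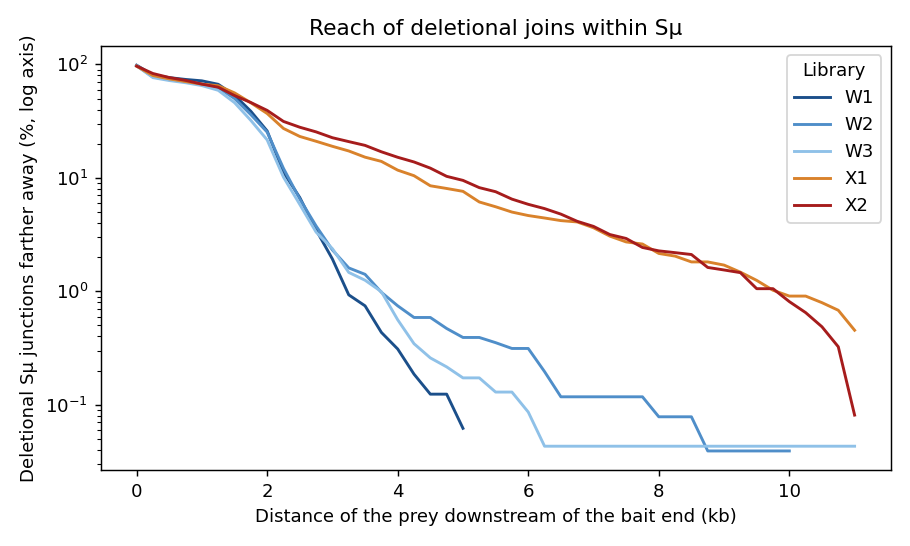
Percentage of deletional Sμ junctions (log vertical axis) whose prey lay farther downstream of the bait end than the distance in kb on the horizontal axis, per library. At 5 kb the W libraries stand between 0.0621% and 0.392%, and X1 and X2 at 7.60% and 9.50%.

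A wider count took all deletional Igh joins whose prey lay inside a constant gene. Besides far joins of Sμ and of Sγ1, it held Sμ joins within 5 kb of the bait end and joins outside both windows. It was made over the deletional Igh junctions with a single match in GRCm38, 1611, 3167 and 2965 in W1, W2 and W3 and 922 and 1438 in X1 and X2. Of these, 9, 34 and 22 lay in an exon or intron of a constant gene in the W libraries, or 0.559%, 1.07% and 0.742%. In X1 112 did, or 12.1%, and in X2 209, or 14.5%. The difference was 11.6 points in pair 1 (9.57 to 13.9) and 13.5 points in pair 2 (11.7 to 15.4). A match was had for 41.0% to 42.1% of deletional junctions in the W libraries and for 49.8% and 48.6% in X1 and X2. Over all deletional Igh junctions, matched or not, the shares were 0.229%, 0.443% and 0.312% in the W libraries and 6.05% and 7.07% in X1 and X2.

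Ighm, which encodes the IgM heavy chain and follows Sμ, held the most of them in X1 and X2. In the W libraries Ighg1 held as many or more. The Ighm gene body (chr12:113418558-113422730 of GRCm38) held 3, 15 and 9 matched deletional joins of W1, W2 and W3, and 64 of 922 and 115 of 1438 of X1 and X2. Ighg1 (chr12:113325240-113330523) held 6, 16 and 9 in the W libraries and 27 and 59 in X1 and X2, or 2.93% and 4.10%. Ighd, the IgD gene, which lies past Ighm and has no switch region of the usual kind, held 0, 1 and 1 in the W libraries and 15 and 29 in X1 and X2, or 1.63% and 2.02%. Of joins in a constant gene, 58.0% in X1 and 51.7% in X2 lay in an exon, against 44.4% to 55.9% in the W libraries. They were direct in 5 of 96 joins without insertion in X1 and 9 of 175 in X2, or 5.21% and 5.14%, and in 2 of 8, 7 of 30 and 3 of 18 in W1, W2 and W3. Inversional joins in a constant gene numbered 0 of 94, 3 of 201 and 2 of 191 matched ones in the W libraries and 11 of 166 and 26 of 366 in X1 and X2.

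**Figure D5:**
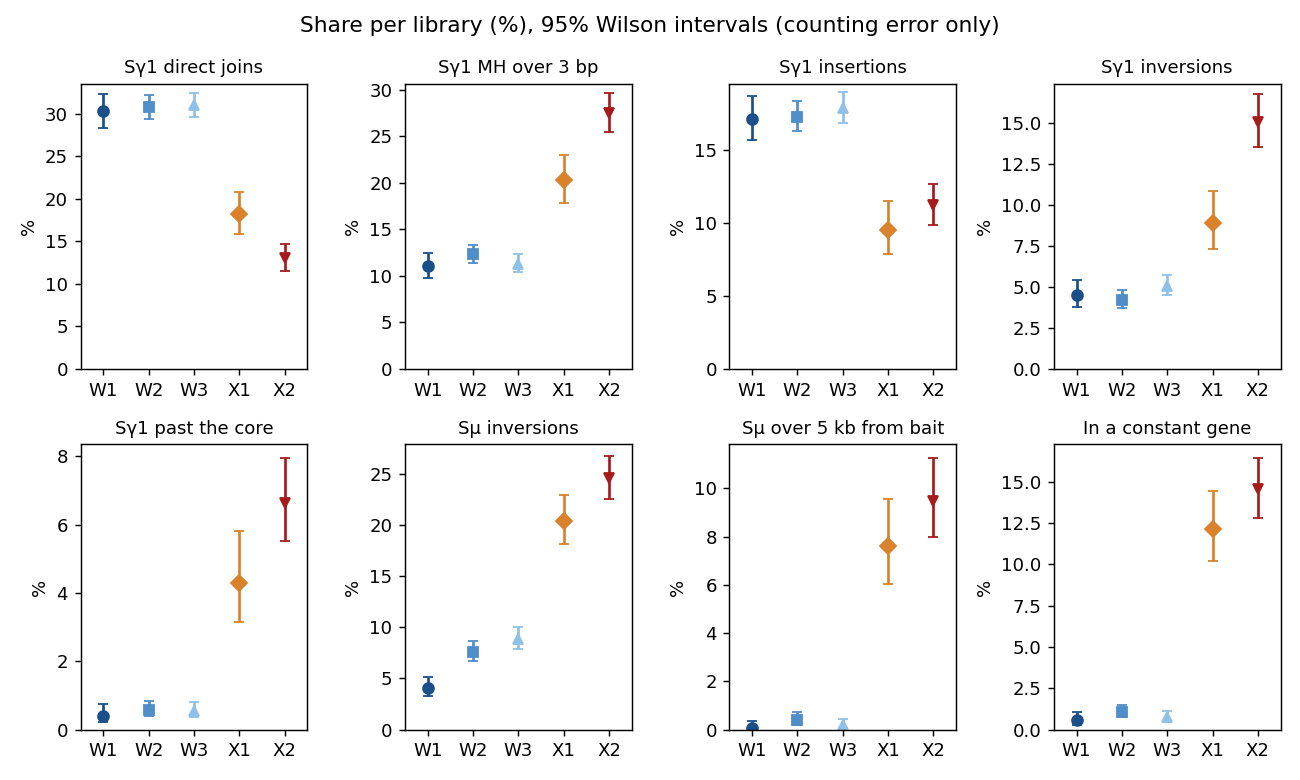
Share in percent (vertical axes, from 0) of 8 kinds of junction in each library (horizontal axes), with 95% Wilson intervals that cover counting error. In every panel both X libraries lie outside the range of the 3 W libraries, and joins in a constant gene stand at 0.559% to 1.07% in the W libraries, 12.1% in X1 and 14.5% in X2.

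Joins to the interval between Ighg2c and Ighe went the other way. This interval holds the switch region of Ighe, the IgE gene to which IL4 also directs switching, and it was looked at after its values were seen. It held 19, 79 and 50 matched junctions of W1, W2 and W3, or 0.462%, 0.974% and 0.664% of all Igh junctions, with a median prey position from chr12:113275555 to chr12:113275713 of GRCm38. X1 held 2 and X2 held 9, or 0.0917% and 0.244%. The pair differences were -0.371 (-0.638 to -0.0771) and -0.730 points (-0.995 to -0.438). In the interval between Ighd and Ighg3, which holds the switch region of Ighg3, the W libraries had 21, 22 and 24 matched junctions, or 0.511%, 0.271% and 0.319%, and X1 and X2 had 10 and 30, or 0.459% and 0.814%. In X2 these were spread more widely, with a median at chr12:113377657 against chr12:113363814 to chr12:113363865 in the W libraries.

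The deposited labels define groups of 3 XLF-/- and 3 WT libraries, which take in a library printed under Shld1-/- and another printed under Shld1-/- Xlf-/-. By label, direct Sγ1 joins were 21.7% ± 7.47 (SD, n = 3) in WT and 16.5% ± 13.1 (SD, n = 3) in XLF-/-, with p = 0.6 by an exact two-sided permutation test over libraries. Across the 9 measures tested by label (Sγ1 share, joins past the core, Sγ1 and Sμ inversions, Sγ1 and Sμ direct joins, MH over 3 bp, mean MH and insertions) p lay between 0.5 and 1 (0.9 to 1 after Benjamini-Hochberg adjustment over the 9), where the smallest p the design allows is 0.1. Each label group joined libraries that stand on either side of the differences above, W1 with X1 in WT and X2 with W3 in XLF-/-.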

How the data were processed

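CSR-HTGTS amplifies, from genomic DNA of stimulated splenic B cells, the joins of a bait break in 5′Sμ with prey breaks anywhere. The authors aligned reads to mm9 with their HTGTS pipeline (the submitters' notes name Bowtie2, with the version not given in the sources used here) and deposited 1 row per junction, a raw list of positions, strands and flags without normalization. The deposited lists of 7 libraries were used. Every row in the Igh window was kept, flagged rows included. MH was the overlap of bait and prey on the read, and a negative overlap was an insertion. Core Sγ1 was read by eye from dashed lines in a figure. Prey bases (50) were matched to the Igh locus of GRCm38 (gencode vM21 genes), and no coordinates were converted. Reads carry no molecular identifiers. The libraries held 1015 to 5181 Sγ1 junctions, so 3 junctions correspond to shares of 0.0579% to 0.296%. The members and measures were chosen with earlier results of these data known. Measures on 1-bp insertions, far Sμ joins and constant genes were added after the values were seen. Tests by label were exact permutations. Values were computed with scipy 1.17.1, pandas 2.3.3 and numpy 2.4.6 under Python 3.11.15 and plotted with matplotlib 3.10.9, after the steps were tested on simulated junctions.

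No genes were tested. Sequences were chosen by rule: the longest MH among deletional core joins, the direct join at the most used prey position, and the deletional join farthest past the core. Alternatives left out flagged or repeated rows, or changed windows, core bounds, denominators and orientation. The repeat numbers pair libraries only as printed, and not by the labels.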

Additional observations from a re-analysis of the deposited data

Results flagged for a closer look

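A further list, labelled Shld1-/-XLF-/-, holds MH lengths only, with 1093 junctions and no positions or insertions, and was kept apart from the comparisons. Direct joins made up 11.6% of its junctions (95% interval 9.85% to 13.7%) and MH over 3 bp 26.2% (23.6% to 28.9%), against 30.3% to 31.0% and 11.0% to 12.3% in the W libraries. In X1 and X2 direct joins made up 18.2% and 13.0%, and MH over 3 bp 20.3% and 27.5%. The list was singled out because the signal lies in data that no comparison used. Its most frequent length was 2 bp, with 25.7%, and no length over 10 bp was listed, while X2 reached 14 bp. How its junctions were selected is not given in the sources used here.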

How the results depend on the processing

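With the Sγ1 share left out, whose direction the choice of libraries may have fixed, all 130 alternatives of the pair differences, 42 of them added after the data were seen, kept the direction of the value reported, and 111 stayed within its interval. Without rows flagged for mapping quality, joins past the core differed by 6.29 and 10.3 points in pairs 1 and 2, Sμ direct joins by -19.4 and -24.7, far Sμ joins by 11.0 and 12.5, and 1-bp insertions in pair 2 by -4.22. With duplicates also left out and the rest collapsed, these were 6.11 and 10.1, -19.5 and -24.8, 11.2 and 12.2, and -4.14. With insertions in the denominator, direct joins differed by -8.61 and -13.9 at Sγ1 and by -10.9 and -15.7 at Sμ. A core widened by 500 bp on either side gave 4.67 points past the core in pair 2. As a description, the Sγ1 share differed by -16.7 and -17.2 points without rows flagged for mapping quality, and by -17.0 and -16.9 with duplicates also left out and the rest collapsed.

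By label, leaving out 1 library gave differences from -4.69 to 15.0 points for the Sγ1 share, -4.45 to 12.4 for joins past the core, -0.738 to 10.5 for Sγ1 inversions, -12.4 to 0.318 for direct joins, -1.07 to 10.7 for MH over 3 bp, -2.99 to 0.826 for insertions, -10.3 to 3.45 for Sμ direct joins and 1.61 to 11.4 for Sμ inversions, and -0.00915 to 0.834 bp for mean MH. All but Sμ inversions thus changed sign without 1 library or another. No paired analysis was possible because the labels number no repeats, and the numbers used for the label groups follow accession order.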
